A study of Mus musculus with 12 samples.

Results

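The data described here cover 9 genes of interferon signaling in mouse bone marrow mesenchymal stem cells (MSCs): the receptor chains Ifnar1, Ifnar2, Ifngr1 and Ifngr2, the transcription factor Stat2, and the interferon regulatory factors (IRFs) Irf1, Irf3, Irf7 and Irf9. They were chosen by name from the 55401 genes of the expression table, all 9 were present once, and all 9 were among the 12016 genes with at least 1 FPKM (fragments per kilobase of exon and mapped library size, a level corrected for gene length and depth) in at least 3 of 12 libraries. The MSCs came from the bone marrow of C57BL/6 mice, were bought from a supplier and carried no stated genetic change. 4 groups of 3 mRNA libraries were compared: untreated MSCs, MSCs given TGF-β1 at 5 ng/mL, and MSCs given the same TGF-β1 together with culture supernatant of monocytic (M-MDSC) or granulocytic (G-MDSC) myeloid-derived suppressor cells. The comparison asks whether the parts of the interferon pathway fell with TGF-β1 and came back with the supernatants. The MDSCs were raised from mouse bone marrow, and no group received fresh MDSC medium, so factors from these cells and the medium itself cannot be told apart. Nothing states that the libraries of a group came from separate cultures, so the p-values measure the spread between these libraries, which may be technical. All 6 supernatant libraries also held kidney transcripts that the other 6 lacked, and liver transcripts were abundant in the G-MDSC libraries and in M-MDSC replicate 3 only, so the main rises are also given without that replicate. In bulk RNA, fewer cells of a type and less RNA per cell cannot be told apart.

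Interferons are secreted antiviral cytokines. Type I interferons bind a receptor made of IFNAR1 and IFNAR2, and interferon-γ binds a receptor made of IFNGR1 and IFNGR2; Janus kinases on these chains then phosphorylate STAT proteins. STAT2 joins IRF9 in the factor ISGF3, which binds the interferon-stimulated response element (ISRE) in the promoters of antiviral genes, Irf7, Irf9 and Stat2 themselves among them, whereas the response to interferon-γ runs through the gamma-activated site (GAS), with Irf1 as a classical target. IRF3 is made at a steady level and is activated by sensors of foreign nucleic acid, and IRF7, itself interferon-induced, amplifies the production of type I interferon.

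The promoters of the genes on which the results turn are shown first: Stat2 and Irf7, which rose over TGF-β1 alone with both supernatants, and Irf1, which fell with TGF-β1 as they did but passed with neither supernatant against TGF-β1 alone. Each line gives the 250 bases before and the 50 bases from the RefSeq start site on, 5′ to 3′ on the strand of the gene, from the RefSeq promoters of GRCm38.p6. Capitals mark a match to the ISRE letters GAAANNGAAA (TTTCNNTTTC on the other strand) or to the GAS letters TTCNNNGAA, which read the same on both strands.
Stat2 (chr10:128270248-128270547, plus strand): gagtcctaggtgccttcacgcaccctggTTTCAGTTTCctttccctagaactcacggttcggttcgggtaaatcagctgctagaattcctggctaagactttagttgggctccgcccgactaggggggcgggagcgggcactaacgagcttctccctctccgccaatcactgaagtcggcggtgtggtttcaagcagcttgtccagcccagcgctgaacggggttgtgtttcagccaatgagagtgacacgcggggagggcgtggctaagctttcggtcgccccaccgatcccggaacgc
Irf7 (chr7:141266375-141266674, minus strand): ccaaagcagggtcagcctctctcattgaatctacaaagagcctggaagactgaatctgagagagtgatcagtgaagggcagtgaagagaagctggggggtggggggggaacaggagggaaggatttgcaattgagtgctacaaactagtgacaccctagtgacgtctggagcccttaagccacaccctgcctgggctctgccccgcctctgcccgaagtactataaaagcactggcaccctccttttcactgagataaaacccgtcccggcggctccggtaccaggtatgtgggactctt
Irf1 (chr11:53769764-53770063, plus strand): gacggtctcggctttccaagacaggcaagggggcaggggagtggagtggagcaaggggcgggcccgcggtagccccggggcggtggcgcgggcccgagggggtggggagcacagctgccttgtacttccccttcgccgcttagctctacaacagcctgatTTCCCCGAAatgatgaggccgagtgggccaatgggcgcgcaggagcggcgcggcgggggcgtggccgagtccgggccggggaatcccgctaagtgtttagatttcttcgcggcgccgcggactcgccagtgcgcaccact

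The Stat2 window held 1 match to the ISRE letters, TTTCAGTTTC, beginning at position -222 from the start site, and it was the only one in the windows of the 9 genes. Irf1 held 1 GAS match, TTCCCCGAA, at position -90 of the first of its 2 start sites. The receptor genes Ifnar1 and Ifnar2 held 1 GAS match each, TTCACGGAA at position -5 and TTCCTGGAA at position -214. Neither set of letters was present in the windows of Ifngr1, Ifngr2, Irf3, Irf7 or either start site of Irf9. Of all 32851 RefSeq promoter windows of this length, 3.44% held the ISRE letters and 8.30% held the GAS letters, so these matches describe the sequence and do not identify a working site. A missing match does not show that a site is absent, because only these letters and windows were searched. Both Irf9 windows began (at 55603735 and 55604329) downstream of the gene start given below, 55603571.

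TGF-β1 alone lowered 5 of the 9 genes and raised none. In the fit of the counts across all genes (edgeR, quasi-likelihood test, Benjamini-Hochberg adjustment over 12016 genes, adjusted p under 0.05), 17.9% of tested genes were lower and 16.1% were higher in this comparison. The 5 were Irf7, Irf1, Irf9, Stat2 and Ifngr2. Both supernatants raised the same 3 genes above TGF-β1 alone, Irf7, Irf9 and Stat2, against a background of 2.83% of tested genes called higher and 1.95% called lower with M-MDSC supernatant, and of 3.1% and 2.46% with G-MDSC supernatant. The median log2 fold change of the 9 genes was -0.49 with TGF-β1, against 0.00048 over all tested genes, 0.19 with M-MDSC supernatant (all genes -0.013) and 0.37 with G-MDSC supernatant (all genes -0.014). The M-MDSC and G-MDSC comparisons share the 3 TGF-β1 libraries.

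**Figure D1:**
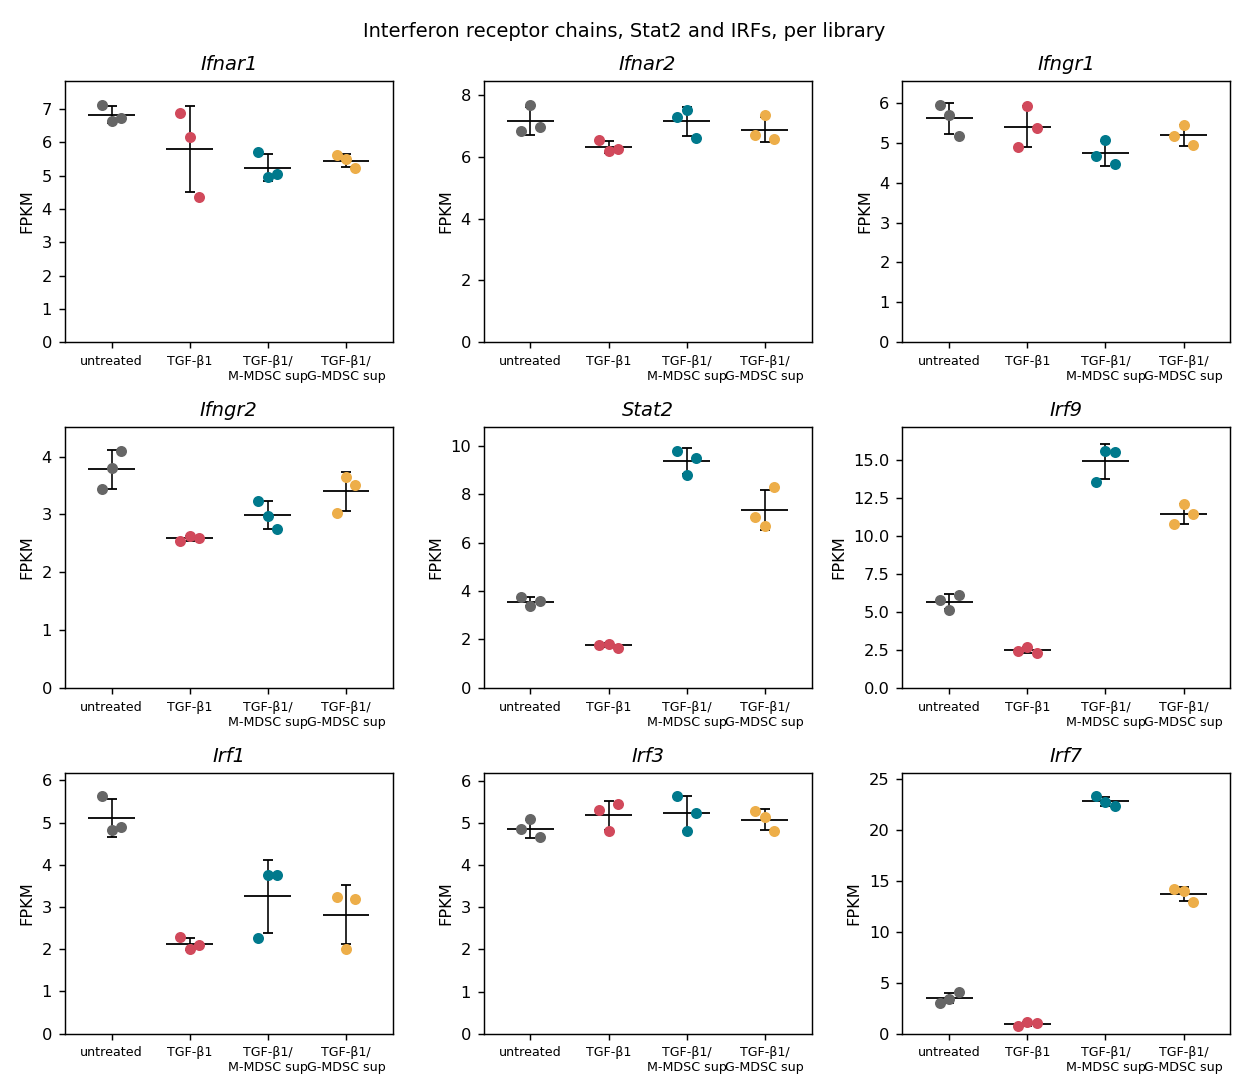
FPKM of the 9 genes (y axis, from 0) in each of the 12 libraries by group (x axis), with points for libraries, a bar for the group mean and an error bar of 1 SD (n = 3). Irf7, Irf9 and Stat2 fall with TGF-β1 and lie above the untreated libraries with both supernatants, Irf1 and Ifngr2 fall without passing the untreated level again, and the levels of Irf3 overlap between all groups.

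Of the 4 receptor chains, Ifngr2 passed the threshold with TGF-β1 and the other 3 did not. The gene for IFNAR1, the chain to which the kinase TYK2 binds (Ifnar1, ENSMUSG00000022967, chr16:91485238-91507441), stood at 7.13, 6.63 and 6.74 FPKM in untreated replicates 1 to 3 and at 6.88, 6.16 and 4.35 FPKM with TGF-β1. It had 5.72, 4.96 and 5.04 FPKM with M-MDSC supernatant and 5.61, 5.49 and 5.23 FPKM with G-MDSC supernatant. The TGF-β1 libraries thus reached from the untreated range to below every other library, and the fold change was not past the threshold (log2 -0.18, SE 0.14, adjusted p = 0.357). Every library of both supernatant groups lay below every untreated library, as did 28.0% (M-MDSC) and 26.8% (G-MDSC) of all tested genes, with a log2 fold change against untreated of -0.35 (SE 0.14, adjusted p = 0.0720) for M-MDSC and -0.30 (SE 0.14, adjusted p = 0.121) for G-MDSC supernatant. Without TGF-β1 replicate 3, which held the value of 4.35 FPKM, these adjusted p-values were 0.00395 and 0.00991. Without TGF-β1 replicate 1 the M-MDSC value passed as well (adjusted p = 0.0408).

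Ifnar2 (ENSMUSG00000022971, chr16:91372783-91405589) encodes the partner chain, on which JAK1 sits. Its FPKM were 6.84, 7.68 and 6.96 in untreated MSCs, 6.53, 6.19 and 6.24 with TGF-β1, 7.29, 7.53 and 6.62 with M-MDSC and 6.72, 7.35 and 6.57 with G-MDSC supernatant. The TGF-β1 libraries lay below all others without overlap, by a small margin. Of all tested genes, 30.0% lay wholly below untreated with TGF-β1, and 13.4% (M-MDSC) and 13.2% (G-MDSC) lay wholly above TGF-β1 with supernatant. The fitted differences were log2 -0.12 (95% confidence interval -0.28 to 0.040, adjusted p = 0.237) with TGF-β1, 0.15 (adjusted p = 0.325) with M-MDSC and 0.096 (adjusted p = 0.591) with G-MDSC supernatant, and did not pass. Ifnar2 was the highest of the 9 genes in FPKM in untreated and in TGF-β1 treated MSCs, but its untreated range overlapped that of Ifnar1.

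The interferon-γ receptor chains differed from each other. Ifngr1 (ENSMUSG00000020009, chr10:19591949-19610229), the ligand-binding chain, had 5.96, 5.71 and 5.18 FPKM untreated, 4.90, 5.93 and 5.38 with TGF-β1, 4.68, 5.07 and 4.47 with M-MDSC and 5.17, 5.46 and 4.94 with G-MDSC supernatant. Its log2 fold change with TGF-β1 was 0.0023, with an interval from -0.19 to 0.20. Ifngr2 (ENSMUSG00000022965, chr16:91547072-91565623), the signaling chain that recruits JAK2, had 3.44, 3.80 and 4.11 FPKM untreated and 2.54, 2.63 and 2.60 with TGF-β1. With M-MDSC supernatant Ifngr2 had 3.24, 2.98 and 2.75 FPKM, and with G-MDSC supernatant 3.02, 3.66 and 3.52 FPKM. All TGF-β1 libraries lay below all others for Ifngr2, as 30.0% of tested genes did against untreated, and it fell by 0.49 on the log2 scale with TGF-β1 (SE 0.096, adjusted p = 0.00248).

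For Ifngr2, neither supernatant passed the threshold against TGF-β1 alone, with log2 0.19 (adjusted p = 0.374) for M-MDSC and 0.37 (adjusted p = 0.0552) for G-MDSC supernatant. The G-MDSC value passed without untreated replicate 1 (adjusted p = 0.0433) and without G-MDSC replicate 1 (log2 0.44, adjusted p = 0.0336), in DESeq2 (adjusted p = 0.0124) and with limma on log2(FPKM + 1) and log2(FPKM + 0.1) (adjusted p of 0.0483 and 0.0430). In mean FPKM, the supernatants made up 33.5% (M-MDSC) and 68.0% (G-MDSC) of the distance that Ifngr2 had fallen. The ratio of Ifngr1 to Ifngr2 within a library, in FPKM, was 1.50 ± 0.24 (SD, n = 3) untreated, 2.09 ± 0.17 with TGF-β1, 1.59 ± 0.13 with M-MDSC and 1.54 ± 0.16 with G-MDSC supernatant. Ifnar1, Ifnar2 and Ifngr2 lie with Il10rb, a receptor chain shared by interferon-λ and interleukin-10, in 193 kb of chromosome 16. Il10rb fell by 0.53 on the log2 scale with TGF-β1 as well (adjusted p = 0.0129), and stood at 2.94 ± 0.33, 1.96 ± 0.10, 2.18 ± 0.33 and 2.14 ± 0.31 FPKM in untreated, TGF-β1, M-MDSC and G-MDSC libraries.

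The ISGF3 genes Stat2 and Irf9 moved together and widely. Stat2 (ENSMUSG00000040033, chr10:128270559-128292849) had 3.73, 3.38 and 3.58 FPKM in untreated MSCs and 1.77, 1.83 and 1.67 FPKM with TGF-β1. It rose to 9.80, 8.79 and 9.51 FPKM with M-MDSC supernatant and to 7.07, 6.67 and 8.28 FPKM with G-MDSC supernatant. No library overlapped between any of the 4 groups, in the order TGF-β1, untreated, G-MDSC, M-MDSC. Over all tested genes, 30.0% lay wholly below untreated with TGF-β1, 13.4% and 13.2% wholly above TGF-β1 with M-MDSC and G-MDSC supernatant, and 19.4% and 19.1% wholly above untreated. Stat2 fell by 0.96 on the log2 scale with TGF-β1 (SE 0.085, adjusted p = 7.41e-06) and rose from there 5.24-fold with M-MDSC (log2 2.39, SE 0.088, adjusted p = 2.23e-08) and 4.10-fold with G-MDSC supernatant (log2 2.03, SE 0.087, adjusted p = 1.04e-07). Against untreated MSCs, Stat2 was 2.69-fold higher with M-MDSC and 2.10-fold higher with G-MDSC supernatant.

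Irf9 (ENSMUSG00000002325, chr14:55603571-55610030), the DNA-binding part of ISGF3, had 5.78, 5.14 and 6.11 FPKM untreated and 2.44, 2.70 and 2.31 FPKM with TGF-β1. It had 13.5, 15.6 and 15.5 FPKM with M-MDSC and 10.8, 12.1 and 11.5 FPKM with G-MDSC supernatant. The 4 groups again did not overlap and stood in the same order as for Stat2. The shares over all tested genes were those given for Stat2, 30.0% below untreated with TGF-β1 and 19.4% and 19.1% above it with the supernatants. Irf9 fell by 1.13 on the log2 scale with TGF-β1 (SE 0.087, adjusted p = 2.55e-06), and rose 5.89-fold with M-MDSC (log2 2.56, SE 0.090, adjusted p = 1.93e-08) and 4.51-fold with G-MDSC supernatant (log2 2.17, SE 0.089, adjusted p = 8.87e-08). The ratio of Irf9 to Stat2 within a library, in FPKM, stayed between 1.38 and 1.81 in all 12 libraries, with group means of 1.59, 1.41, 1.60 and 1.57 for untreated, TGF-β1, M-MDSC and G-MDSC. 2.28% of the exon bases of Irf9 also belong to Rnf31, a gene on the same strand with a mean of 2.61 FPKM.

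Irf7 (ENSMUSG00000025498, chr7:141262706-141266481) had the widest range of the 9 genes. It stood at 3.06, 3.44 and 4.05 FPKM untreated and at 0.713, 1.12 and 1.05 FPKM with TGF-β1, where it was the lowest of the 9. With M-MDSC supernatant it reached 23.3, 22.7 and 22.3 FPKM and with G-MDSC supernatant 14.2, 14.0 and 13.0 FPKM, the highest of the 9 in both groups. None of the 4 groups overlapped, against the same 30.0% of tested genes below untreated with TGF-β1 and 19.4% and 19.1% above it with M-MDSC and G-MDSC supernatant. Irf7 fell by 1.80 on the log2 scale with TGF-β1 (SE 0.15, adjusted p = 5.00e-06), and rose from TGF-β1 alone 23.1-fold with M-MDSC (log2 4.53, SE 0.17, adjusted p = 2.22e-08) and 13.9-fold with G-MDSC supernatant (log2 3.79, SE 0.16, adjusted p = 1.01e-07). By size of rise it was number 74 of the 12016 tested genes with M-MDSC and number 80 with G-MDSC supernatant. 5.71% of tested genes had a lower mean FPKM than Irf7 with TGF-β1, 32.0% untreated, 81.5% with M-MDSC and 70.8% with G-MDSC supernatant.

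Irf3 (ENSMUSG00000003184, chr7:44997648-45002848), the constitutive relative of Irf7, had 4.86, 5.09 and 4.66 FPKM untreated, 5.30, 4.80 and 5.46 with TGF-β1, 5.63, 4.81 and 5.24 with M-MDSC and 5.29, 5.14 and 4.81 with G-MDSC supernatant. All 4 groups overlapped. Its fitted log2 differences were 0.15 (interval -0.024 to 0.32, adjusted p = 0.177) for TGF-β1, -0.011 (interval -0.18 to 0.16) for M-MDSC and -0.057 (interval -0.23 to 0.12) for G-MDSC supernatant against TGF-β1. The FPKM ratio of Irf7 to Irf3 within a library went from 0.726 ± 0.13 (SD, n = 3) untreated to 0.187 ± 0.050 with TGF-β1, and was 4.37 ± 0.31 with M-MDSC and 2.70 ± 0.019 with G-MDSC supernatant. A small part of the exons of Irf3 and Irf7 overlaps genes on the other strand, 2.56% with Bcl2l12 and 1.19% with Phrf1, and the strand setting of the counting is not given in the sources used here.

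Irf1 (ENSMUSG00000018899, chr11:53770014-53777323), a transcription activator downstream of interferon-γ, had 5.62, 4.83 and 4.89 FPKM untreated and 2.29, 2.01 and 2.10 FPKM with TGF-β1. It had 2.26, 3.75 and 3.76 FPKM with M-MDSC and 3.24, 2.02 and 3.20 FPKM with G-MDSC supernatant. In each supernatant group 2 libraries lay above all TGF-β1 libraries and 1 lay within their range, and all 6 lay below the untreated libraries, as did 28.0% (M-MDSC) and 26.8% (G-MDSC) of all tested genes. Irf1 fell by 1.20 on the log2 scale with TGF-β1 (SE 0.22, adjusted p = 0.00134). Against TGF-β1 alone, the log2 difference was 0.59 (SE 0.21, adjusted p = 0.186) with M-MDSC and 0.38 (SE 0.21, adjusted p = 0.430) with G-MDSC supernatant, and without M-MDSC replicate 1 it was 0.79 (adjusted p = 0.0438). The mean FPKM had made up 37.6% and 23.0% of the fall.

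**Figure D2:**
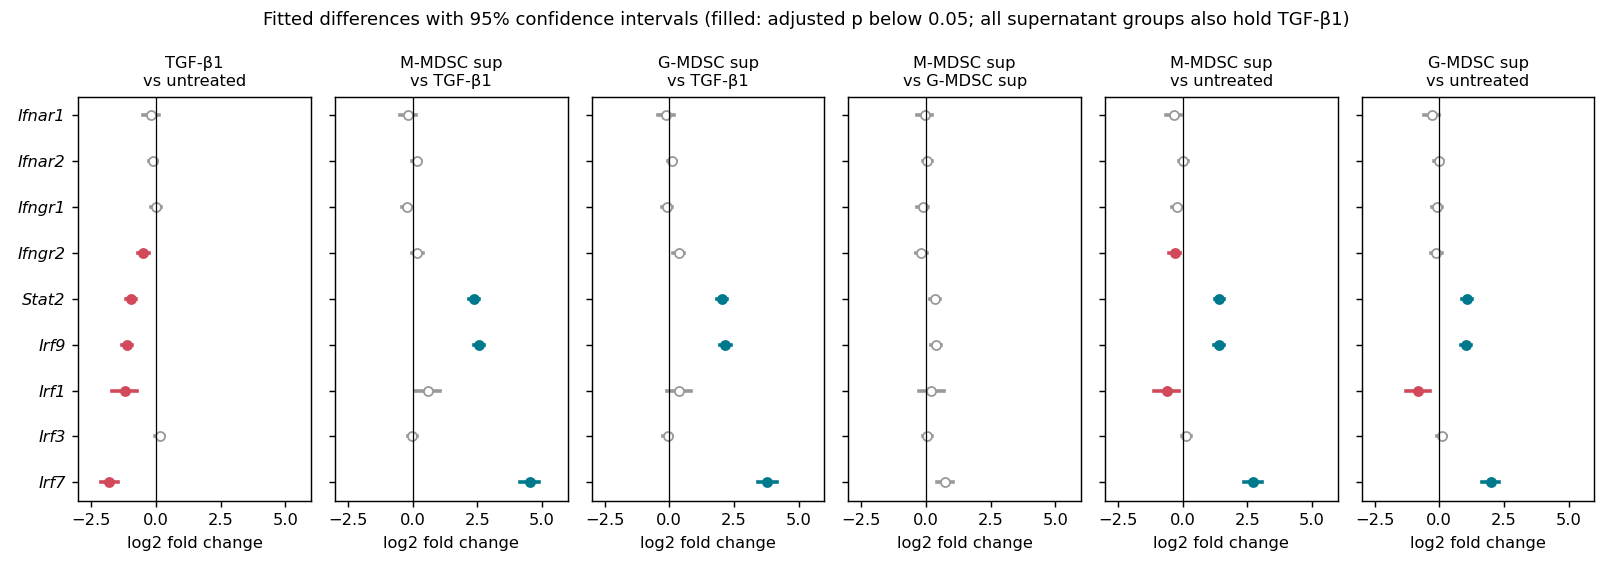
Fitted log2 fold changes (x axis) of the 9 genes (y axis) in 6 comparisons, with 95% confidence intervals as lines and filled points for an adjusted p under 0.05 (red lower, teal higher). Irf7, Irf9 and Stat2 are lower with TGF-β1 and higher with each supernatant, against TGF-β1 alone and against untreated MSCs.

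By the rule of the study (more than 2-fold in either direction at an unadjusted p under 0.05), 3 of the 9 genes were lower with TGF-β1 (Irf7, Irf1 and Irf9, where 4.14% of all tested genes were), and Irf7, Irf9 and Stat2 were higher with M-MDSC (1.94% of all tested genes) and with G-MDSC supernatant (1.9% of all tested genes). Stat2 and Ifngr2 fell by less than 2-fold with TGF-β1.

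Between the supernatants, Irf7, Irf9 and Stat2 were higher in every M-MDSC library than in every G-MDSC library. Of all tested genes, 5.97% lay above and 6.03% below in this way. The fold was 1.66 for Irf7 (log2 0.74, SE 0.14), 1.31 for Irf9 (log2 0.39, SE 0.085) and 1.28 for Stat2 (log2 0.35, SE 0.083). None of the 9 passed after adjustment in edgeR, with adjusted p-values of 0.126, 0.191 and 0.213 for these 3 genes and unadjusted p-values of 3.63e-04, 9.91e-04 and 0.00151, the only unadjusted ones under 0.05 among the 9. In this comparison 0.0999% of all tested genes were called higher with M-MDSC and 0.025% lower. The call depended on the tool and on the libraries fitted. DESeq2 passed all 3 genes (adjusted p of 6.45e-05 for Irf7, 0.00691 for Irf9 and 0.0152 for Stat2) and called 121 of all tested genes, against 12 higher and 3 lower in edgeR, and Irf7 passed in a fit of these 2 groups alone (adjusted p = 0.00796), with limma on log2(FPKM + 1) (adjusted p = 0.0124) and without TGF-β1 replicate 1 (adjusted p = 0.0117). The other 6 genes differed by log2 -0.18 (Ifngr2, interval -0.39 to 0.033) to 0.21 (Irf1, interval -0.26 to 0.68).

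Against untreated MSCs, the supernatant groups, which also held TGF-β1, had 3 of the 9 genes higher. These were again Irf7 (log2 2.72 with M-MDSC, adjusted p = 2.20e-07, and 1.99 with G-MDSC supernatant, adjusted p = 2.12e-06), Irf9 (log2 1.43 and 1.04) and Stat2 (log2 1.43 and 1.07). For M-MDSC supernatant 16.4% of tested genes were called higher and 18.9% called lower against untreated, and for G-MDSC supernatant 16.4% and 18.4%, so a change against untreated was common. Irf1 was lower in both, by log2 -0.61 (adjusted p = 0.0455) with M-MDSC and -0.82 (adjusted p = 0.0118) with G-MDSC supernatant. Ifngr2 was lower with M-MDSC supernatant only by the threshold (log2 -0.30, adjusted p = 0.0313, against -0.12 and 0.369 with G-MDSC), and the difference between the supernatants did not pass (adjusted p = 0.855). The M-MDSC calls of Irf1 and Ifngr2 were both lost without untreated replicate 2 (adjusted p of 0.0755 and 0.0794) and without untreated replicate 3 (0.0757 and 0.113). The call of Irf1 was also lost without untreated replicate 1 (0.118), without each TGF-β1 replicate (0.0576 to 0.0612), without G-MDSC replicate 1 or 3 (0.0507 and 0.0515) and without M-MDSC replicate 1 (0.125), and that of Ifngr2 without M-MDSC replicate 2 (0.0767) or 3 (0.113).

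Taking the untreated mean FPKM as the starting level and TGF-β1 as the floor, the return was 853% of the fall for Irf7, 388% for Irf9 and 421% for Stat2 with M-MDSC supernatant, and 499%, 280% and 309% with G-MDSC supernatant. These 3 genes thus stood well above their starting level, whereas Irf1 and Ifngr2 did not reach it in the mean.

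Further upstream, interferon transcripts were close to absent. Of the 11 ligand genes listed none reached the level for testing: Ifnb1, Ifna1, Ifna2, Ifna4, Ifnk, Ifng and Ifnl2 had 0 counts in all 12 libraries, and Ifnz had the most with 6 to 37 counts per library. The kinases that sit on the receptors were measured throughout. Jak1 fell by 0.36 on the log2 scale with TGF-β1 (adjusted p = 6.38e-05), from 27.7 ± 0.81 to 20.7 ± 0.52 FPKM (SD, n = 3), and stood at 21.9 ± 0.32 and 22.0 ± 1.1 FPKM with M-MDSC and G-MDSC supernatant. Jak2 (log2 0.024, adjusted p = 0.811) and Tyk2 (log2 -0.26, adjusted p = 0.103) did not pass with TGF-β1, and none of the 3 kinases passed with either supernatant. Ifnlr1, the receptor of interferon-λ, had at most 16 counts in any library.

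Of the 6 other STAT genes listed, 5 were tested and all 5 fell with TGF-β1. Over all tested genes, 17.9% were called lower with TGF-β1, and 2.83% and 3.1% higher with M-MDSC and G-MDSC supernatant. Stat5a, a mediator of cytokine and growth hormone signals, fell from 1.68 ± 0.098 to 0.461 ± 0.088 FPKM (log2 -1.80, adjusted p = 1.10e-05), and Stat3, the main STAT of the interleukin-6 family, fell from 16.4 ± 1.2 to 10.4 ± 0.30 FPKM (log2 -0.60, adjusted p = 1.10e-05). Stat5b (log2 -0.30) and Stat6 (log2 -0.22) fell less. With M-MDSC supernatant 1 of the 5 rose, and with G-MDSC supernatant 2 did, Stat3 by log2 0.24 (adjusted p = 0.0307) among them. Stat5a, Stat5b and Stat6 did not pass with either supernatant, unlike Stat2, and Stat4 had at most 5 counts.

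Of the 8 other IRF family and IRF2-binding genes, 5 were tested. With TGF-β1, Irf2bpl rose (log2 0.81, adjusted p = 2.21e-06) and Irf5, an IRF of inflammatory cytokine genes, fell from 1.68 ± 0.32 to 0.585 ± 0.054 FPKM (log2 -1.46, adjusted p = 1.92e-04), while Irf2bp2 (log2 -0.12) and Irf2bp1 (log2 -0.24) did not pass. None of the 5 passed with either supernatant. Among the IRF genes tested here, the rise with supernatant was thus called for Irf7 and Irf9 and not for Irf1, Irf2, Irf3 or Irf5. Irf4 and Irf8, which are known from lymphoid and myeloid cells, had at most 29 counts.

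Among 10 tested negative regulators, Usp18, which blocks signaling at IFNAR2, rose from 1.08 ± 0.35 FPKM with TGF-β1 to 72.7 ± 1.6 with M-MDSC (log2 6.04, adjusted p = 2.05e-08) and 49.3 ± 1.6 with G-MDSC supernatant (log2 5.48, adjusted p = 6.54e-08), and stood at 5.75 ± 0.91 FPKM untreated. Socs3, an inhibitor of Janus kinases, rose by log2 0.31 (adjusted p = 0.00497) and 0.42 (adjusted p = 6.12e-04). The other 8 did not pass with either supernatant, the lowest with M-MDSC being Pias3 (log2 -0.25, adjusted p = 0.50) and Pias2 (log2 -0.10, adjusted p = 0.293). With TGF-β1, 4 of the 10 fell and 1 rose, where 17.9% of all tested genes were called lower and 16.1% higher. The shares called higher with M-MDSC and G-MDSC supernatant were 2.83% and 3.1% of all tested genes.

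Of 13 tested genes whose products activate IRF3 and IRF7, 8 fell and 2 rose with TGF-β1, and 4 rose and none fell with M-MDSC supernatant. Over all tested genes, 17.9% were called lower and 16.1% higher with TGF-β1. With M-MDSC supernatant 2.83% were called higher and 1.95% lower, and with G-MDSC supernatant 3.1% and 2.46%. The RNA sensor gene Ddx58 (RIG-I) had 6.65 ± 0.32 FPKM untreated, 2.38 ± 0.11 with TGF-β1, 24.2 ± 0.44 with M-MDSC and 19.0 ± 0.39 with G-MDSC supernatant. Tlr3, the endosomal sensor of double-stranded RNA, rose from 0.434 ± 0.050 FPKM with TGF-β1 to 2.17 ± 0.56 and 1.54 ± 0.32 FPKM. The lowest log2 differences with M-MDSC supernatant were those of Traf3 (-0.21, adjusted p = 0.888) and Mavs (-0.097, adjusted p = 0.395). With G-MDSC supernatant 4 of the 13 rose and 1, Irak1, fell (log2 -0.31, adjusted p = 0.0233).

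Downstream, genes known to carry the ISRE followed Irf7, Irf9 and Stat2 in direction. Of 22 listed, 19 were tested. 18 fell with TGF-β1 (median log2 -1.95), 18 rose with M-MDSC (median 4.01) and 18 rose with G-MDSC supernatant (median 3.30). Over all tested genes, 17.9% were called lower with TGF-β1, and 2.83% and 3.1% higher with M-MDSC and G-MDSC supernatant. Mx2 and Parp14 averaged under 1 FPKM untreated and with TGF-β1, and reached the level for testing through the supernatant groups. Their rise was thus partly a condition of being tested. Mx2, an antiviral GTPase, stood at 0.807 ± 0.17, 0.0727 ± 0.054, 7.47 ± 0.40 and 4.21 ± 0.56 FPKM in untreated, TGF-β1, M-MDSC and G-MDSC libraries, and Ifi44 rose by log2 5.93 with M-MDSC supernatant. The smallest differences with M-MDSC supernatant were those of Ifit2, which rose by log2 0.57 (adjusted p = 0.00210), and Oasl1 (log2 0.78, adjusted p = 0.263). Against untreated MSCs 15 were higher and 2 lower with M-MDSC supernatant, and 13 higher and 3 lower with G-MDSC supernatant.

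The GAS list held 19 genes, of which 11 were tested. All 11 fell with TGF-β1 (median log2 -2.32) and all 11 rose with M-MDSC (median 3.49) and with G-MDSC supernatant (median 3.03). Irf1, the member tied to this branch, did not pass with either supernatant against TGF-β1. Of all tested genes, 17.9% were called lower with TGF-β1, and 2.83% and 3.1% higher with M-MDSC and G-MDSC supernatant. Gbp7, Psmb8 and Iigp1 (means of 0.706, 0.924 and 1.00 FPKM untreated) reached the level for testing only through the supernatant groups. Their rise was thus partly a condition of being tested. Iigp1, an interferon-inducible GTPase, stood at 1.00 ± 0.17 FPKM untreated, 0.0140 ± 0.012 with TGF-β1, 1.60 ± 0.13 with M-MDSC and 0.702 ± 0.080 with G-MDSC supernatant, and Gbp3 rose by log2 5.31 with M-MDSC supernatant. The smallest rises were those of Nlrc5 (log2 1.21, adjusted p = 0.00178) and Cxcl10 (log2 1.50, adjusted p = 8.40e-05), a chemokine that stayed lower than untreated with both supernatants (log2 -1.15 and -1.46). Many genes of this list answer to type I interferon as well.

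**Figure D3:**
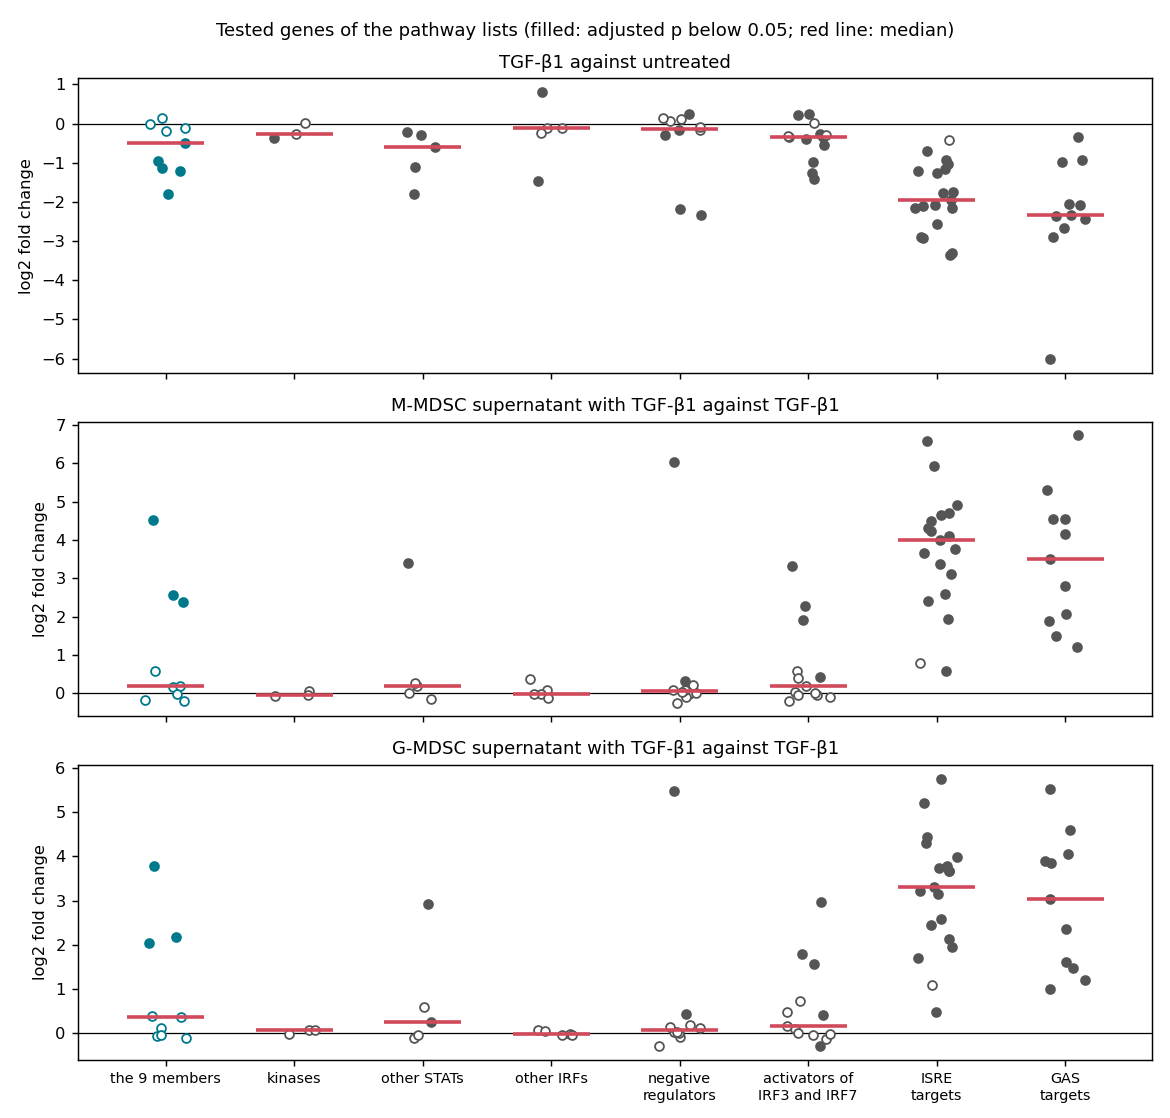
Log2 fold changes (y axis) of the tested genes in the 9 members and 7 pathway lists (x axis) for TGF-β1 against untreated (top) and each supernatant against TGF-β1 (middle, bottom), with filled points for an adjusted p under 0.05 and red lines for medians. With the supernatants the kinases and other IRFs sit near 0, and the ISRE and GAS lists have medians between 3.03 and 4.01.

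Of all tested genes, those whose levels over the 12 libraries were most like Irf7 were Isg15, Nmi and Gbp3, with Pearson correlations of 0.998, 0.997 and 0.997 of log2(FPKM + 1). Irf9 was followed most closely by Igtp, Phf11d and Oas1b (0.996 each), and Stat2 by Ddx58, Eif2ak2 and Ddx60 (0.995 each). The correlation of Irf7 with Irf9 and with Stat2 was 0.990 each, and that of Stat2 with Irf9 was 0.990. The closest genes to Irf1 were Rspo2, Ect2 and Parp3 (0.946 to 0.937), those to Ifngr2 were Fendrr, Serping1 and Noct (0.905 to 0.901), and those to Ifnar1 were Fem1a, Dock8 and Mfsd12 (0.892 to 0.885). Ifnar2 was closest to Tmco4, Sdhb and Gm5853 (0.880 to 0.868), Ifngr1 to Phlda1, Knstrn and Sp1 (0.881 to 0.835) and Irf3 to Slc46a1, Tut1 and Epo (0.878 to 0.803). These values describe 12 libraries in 4 groups that share treatments, and Irf1 correlated with Irf7 at 0.109.

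The MSC label and other cell types were checked against marker genes. Of 8 MSC markers, Col1a1 (498 FPKM), Itgb1 (254), Ly6a (245), Cd44 (39.5), Pdgfrb (32.3) and Pdgfra (14.0) were the highest in untreated MSCs. Thy1 (4.49 FPKM) and Eng (0.766 FPKM) were lower, and Eng was not tested. With TGF-β1, Thy1 (log2 -0.99) and Pdgfra (log2 -1.44) fell, and Itgb1, Cd44, Pdgfrb and Col1a1 rose. Ly6a fell to 16.2 FPKM with TGF-β1 and stood at 92.5 and 66.9 with M-MDSC and G-MDSC supernatant. Kit, the gene of CD117, had at most 10 counts in any library. The summed FPKM of 13 leukocyte and myeloid markers ran from 26.9 to 28.0 untreated, 13.8 to 15.8 with TGF-β1, 20.7 to 26.5 with M-MDSC and 26.9 to 29.5 with G-MDSC supernatant. Most of it came from Cd14, with group means of 23.0, 13.8, 20.4 and 22.6 FPKM, and Ptprc, the gene of the leukocyte antigen CD45, averaged at most 0.0081 FPKM in any group. Lyz2, the lysozyme gene of myeloid cells, averaged 0.115 FPKM untreated. It went from a mean of 0.0572 FPKM with TGF-β1 to 1.54 with M-MDSC (log2 4.60, adjusted p = 0.0262) and 1.87 with G-MDSC supernatant (log2 4.87, adjusted p = 0.0183). Lyz2 reached the level for testing only through the supernatant libraries, so its rise was partly a condition of being tested. S100a9, a calcium-binding protein gene of neutrophils and monocytes, was at 0 in the 6 libraries without supernatant and averaged 0.576 and 1.13 FPKM with M-MDSC and G-MDSC supernatant. Its partner S100a8 averaged 0.149 and 0.208 FPKM and the integrin gene Itgam 0.0309 and 0.0501 FPKM with the supernatants, against at most 0.0211 FPKM for either in the groups without. Ly6g, the neutrophil antigen gene, averaged 1.83 FPKM untreated, 0.0681 with TGF-β1, 0.0619 with M-MDSC and 0.125 with G-MDSC supernatant, and Ly6c2, a monocyte antigen gene, 1.71, 0.0450, 0.148 and 0.211 FPKM, and neither passed with a supernatant against TGF-β1. Csf1r, the receptor gene for macrophage colony-stimulating factor, averaged 0.631, 1.03, 1.08 and 1.19 FPKM in the same order and did not pass with the supernatants either. 4 endothelial markers summed to at most 0.586 FPKM and 4 epithelial markers to at most 1.01 FPKM in any library. Transcripts of liver and of kidney tubule, apart from Aqp1 and Cubn, averaged higher with either supernatant than without. Aqp1 averaged 4.22 FPKM with TGF-β1, 3.41 with M-MDSC (adjusted p = 0.0910) and 3.26 with G-MDSC supernatant (log2 -0.40, adjusted p = 0.0328). Cubn averaged 0.394, 0.454, 0.386 and 0.432 FPKM in untreated, TGF-β1, M-MDSC and G-MDSC libraries. The summed FPKM of 10 kidney tubule markers was 29.3 to 30.9 untreated, most of it from the water channel gene Aqp1 (29.9), 4.68 to 4.84 with TGF-β1, 36.7 to 108 with M-MDSC and 72.2 to 83.7 with G-MDSC supernatant. The kidney transcript Kap had 0 counts in the 6 libraries without supernatant and 537 to 4246 counts in those with it. 7 hepatocyte markers had 0 counts in the same 6 libraries and summed to 0.0762, 0.176 and 61.3 FPKM in M-MDSC replicates 1, 2 and 3 and to 67.3 to 72.9 FPKM with G-MDSC supernatant. Irf7 was as high in M-MDSC replicates 1 and 2, at 23.3 and 22.7 FPKM, as in replicate 3 at 22.3, and without replicate 3 the log2 rise over TGF-β1 was 4.54 for Irf7, 2.53 for Irf9 and 2.38 for Stat2. The part of the kidney and myeloid transcripts in these rises was not tested.

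**Figure D4:**
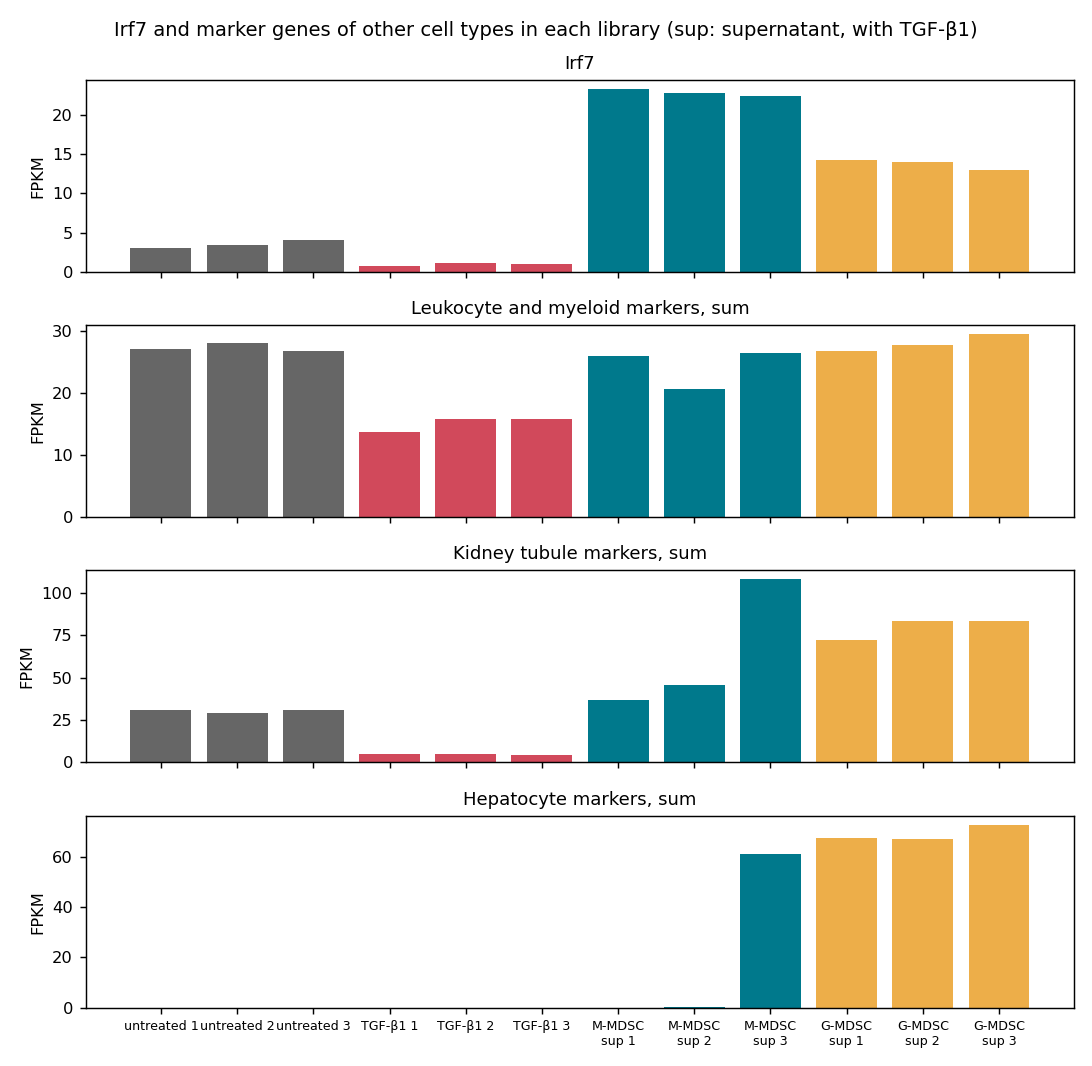
FPKM (y axis, from 0) in each of the 12 libraries (x axis) for Irf7 and for the summed markers of leukocytes, kidney tubule and hepatocytes, coloured by group. Irf7 is at 22.3 to 23.3 in the 3 M-MDSC libraries, while the hepatocyte sum is at most 0.176 in replicates 1 and 2 and 61.3 in replicate 3.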

How the data were processed

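Poly(A) RNA of 12 MSC libraries in 4 groups was sequenced as paired ends from dUTP libraries. Per the labels and methods, read quality was assessed by the authors with fastp, alignment to GRCm38 was done with HISAT2 2.0.4 and transcript assembly with StringTie 1.3.4d, and the submitters' processing notes also name cutadapt 1.9, edgeR and DESeq2. The deposited table holds raw counts per gene and library beside FPKM computed by the authors, with 0.0001 standing for genes without counts. The counting tool, its strand setting and the annotation release are not given in the sources used here.

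The libraries held from 73977669 to 84565450 counts, and the 9 genes had from 246 to 7325 counts per library. Of the counts from 1 to 12, 44.3% were 4, 8 or 12, and counts divided by 4 were therefore one alternative. The test was restricted to genes that reached an FPKM of 1 in 3 or more libraries. Library sizes were corrected by the TMM method (factors 0.978 to 1.03), and edgeR 4.0.16 (R 4.3.3) was run on all 4 groups together, using two-sided quasi-likelihood F tests and Benjamini-Hochberg adjustment over 12016 genes. Standard errors and 95% intervals were derived from the F statistics, and levels are FPKM as deposited. On simulated data, the fit of M-MDSC supernatant against TGF-β1 recovered 175 of 200 genes changed 2-fold among 12016, with 1 false call.

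Alternatives were upper-quartile scaling, DESeq2 1.42.0, no filter, filterByExpr, limma 3.58.1 on log2(FPKM + 1) and log2(FPKM + 0.1), fits of the compared groups alone, the replicate number as a block, a robust fit, the rule of the study, and leaving out each library. The 9 genes are named throughout. Of lists with up to 6 genes all were to be named, and of longer lists those with the 2 highest and 2 lowest fold changes in the comparison described. For each of the 9, the 3 most correlated genes were named. Irf2, Irak1, Parp14, Gbp7 and Psmb8, and Cxcl10 against untreated, were named after their values were seen. The members and lists were chosen with earlier results of these data known. Values of some listed genes are not reported here. Columns of other annotation were not used. Tables were handled with Python and pandas.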

Additional observations from a re-analysis of the deposited data

How the results depend on the processing

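The falls of Irf7, Irf9, Stat2, Irf1 and Ifngr2 with TGF-β1 and the rises of Irf7, Irf9 and Stat2 with either supernatant kept their direction in each of the 23 alternatives, and their adjusted p stayed under 0.05, although by the rule of the study only 3 genes changed with TGF-β1 (Stat2 and Ifngr2 fell by less than 2-fold). Between the supernatants, 0 of the 9 genes passed with edgeR and all groups, 1 passed in a fit of the compared groups alone and with limma on log2(FPKM + 1), 3 passed with DESeq2, and 0 to 1 passed with a library left out. Against untreated, 5 genes passed with M-MDSC supernatant, but 3 without a filter, with filterByExpr or by the rule of the study, and 3 to 5 with a library left out. Ifnar1 passed as well with upper-quartile scaling (adjusted p = 0.0492) and DESeq2 (0.0466) and Ifngr1 with limma (0.0464 and 0.0451), each giving 6 genes, and Ifnar1 also in the compared groups alone (0.0136), where Irf1 (0.0663) and Ifngr2 (0.0759) did not. With G-MDSC supernatant against untreated, 4 genes passed, 5 in the compared groups alone (Ifnar1 added, 0.0111) and without TGF-β1 replicate 3 (Ifnar1, 0.00991), and 3 by the rule of the study. With G-MDSC supernatant against TGF-β1, 3 genes passed, and 4 with limma, with DESeq2 and without untreated or G-MDSC replicate 1, where Ifngr2 was added. The cause of these shifts was not tested. With the replicate number as a block (replicate block), the 9 genes had 5, 3, 3, 0, 4 and 4 calls, for TGF-β1 against untreated, M-MDSC and G-MDSC supernatant against TGF-β1, M-MDSC against G-MDSC, and each supernatant against untreated. Residuals of same-numbered libraries did not correlate (mean r 0.0017 over 18 pairs, -0.00084 over 36 other pairs), so the numbers were not taken to pair libraries. Under the block, Ifnar1 passed (adjusted p = 0.0430) and Ifngr2 (0.0516) and Irf1 (0.0727) did not for M-MDSC supernatant against untreated, and it changed no other call. Only differences that passed in no setting changed sign. Ifngr1 with TGF-β1 was at log2 -0.022 with upper-quartile scaling, -0.049 and -0.057 with limma (+ 1 and + 0.1), and -0.072 to 0.069 with a library left out. Irf3 with M-MDSC supernatant against TGF-β1 was at 0.0027 in the compared groups alone, 0.0090 and 0.010 with limma, and -0.070 to 0.045 with a library left out. Ifnar2 with M-MDSC supernatant against untreated was at -0.0029 and -0.0033 with limma and -0.0074 to 0.096 with a library left out. With a library left out, Ifnar1 with G-MDSC supernatant against TGF-β1 ran from -0.27 to 0.023, Irf3 between the supernatants from -0.013 to 0.10, and Ifnar2 with G-MDSC supernatant against untreated from -0.074 to 0.039. Over all genes, comparisons and alternatives, 1173 of 1242 results kept their side of the threshold and direction, 26 lost a call, 22 gained one and 21 changed sign.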
